A study of Homo sapiens with 192 samples.

Results

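The genes described here encode 5 small structural RNAs, RMRP, RPPH1, RN7SK, RN7SL1 and RN7SL2, out of 58243 genes counted in human colorectal cancer (CRC) cells. They were chosen by name, with their levels, their spread between replicates and their response to growth conditions already known, so these 3 properties are described below without a test. Cells of 4 CRC lines, HCT116, LS174T, HT29 and LS513, were grown either in 2D or in 3D, with 3 libraries in each of the 8 groups and 24 libraries in all. The first 2 lines are microsatellite instable and the last 2 microsatellite stable. No group carried a drug, a deletion or a transgene, and each line is a tumour cell line kept in culture, without the stroma of a tumour. Messenger RNA was selected with oligo(dT) and sequenced as stranded single reads of 75 bases, and the counts of the technical replicates of each library were summed.

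These RNAs work as parts of RNA-protein particles and encode no protein. RMRP is the RNA of RNase MRP, which cuts the precursor of ribosomal RNA, and RPPH1 is the catalytic RNA of RNase P, which removes the leader of precursor tRNAs. RN7SK, the 7SK RNA, holds the elongation kinase P-TEFb in an inactive particle, and RN7SL1 and RN7SL2 are near-identical copies of the 7SL RNA of the signal recognition particle, which brings ribosomes to the endoplasmic reticulum. RNA polymerase III makes all of them, and their transcripts end without the poly(A) tail of a messenger RNA.

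The sequences are shown because the libraries were selected on A runs and because reads that aligned more than once were removed. They are the annotated transcripts of GENCODE 29 on GRCh38. RMRP is printed whole, RPPH1 from base 34 to 333 and RN7SK from base 32 to 331, and capitals mark the longest runs of A.

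RMRP: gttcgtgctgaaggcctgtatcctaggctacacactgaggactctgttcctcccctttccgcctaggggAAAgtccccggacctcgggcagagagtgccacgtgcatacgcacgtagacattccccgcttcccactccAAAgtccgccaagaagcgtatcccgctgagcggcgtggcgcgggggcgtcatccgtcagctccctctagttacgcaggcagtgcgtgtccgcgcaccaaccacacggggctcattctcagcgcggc

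RPPH1: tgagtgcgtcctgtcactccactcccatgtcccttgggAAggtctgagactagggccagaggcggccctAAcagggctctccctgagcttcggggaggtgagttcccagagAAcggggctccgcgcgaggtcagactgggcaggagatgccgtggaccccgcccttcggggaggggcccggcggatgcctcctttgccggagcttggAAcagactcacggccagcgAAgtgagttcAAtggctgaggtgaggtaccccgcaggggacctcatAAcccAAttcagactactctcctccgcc

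RN7SK: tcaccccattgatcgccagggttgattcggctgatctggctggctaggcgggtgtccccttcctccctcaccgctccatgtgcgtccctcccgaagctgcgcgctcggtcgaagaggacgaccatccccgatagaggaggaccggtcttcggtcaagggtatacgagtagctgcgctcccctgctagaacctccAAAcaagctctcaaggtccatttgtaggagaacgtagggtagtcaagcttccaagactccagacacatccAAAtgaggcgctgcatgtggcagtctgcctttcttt

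RMRP lies at chr9:35657754-35658017 on the minus strand and is 264 bases long. RPPH1 spans 333 bases at chr14:20343075-20343407, also on the minus strand. RN7SK lies at chr6:52995620-52995950 on the plus strand, with 331 bases. RN7SL1, of 299 bases, lies on the plus strand of chromosome 14 and RN7SL2, of 300 bases, on its minus strand. All 5 are single-exon genes whose G and C content lay between 58.0% and 64.6%. The longest run of A was 2 bases in RPPH1, 3 in RMRP and RN7SK, and 4 in RN7SL1 and RN7SL2, and none of the annotated sequences ended in A.

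Of the 75-base windows of each RNA, the share found in no other annotated transcript was 100% for RMRP and for RPPH1, 36.6% for RN7SK, 22.7% for RN7SL1 and 15.9% for RN7SL2. Duplicate entries of the same locus were set aside in this count. Reads from the shared parts of RN7SK and of both 7SL copies could have been removed by the authors' filter, so the levels of these 3 RNAs, and the split between the 7SL copies, are uncertain.

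Several members are annotated more than once. A second identifier for RMRP, for RN7SK and for the RN7SL1 locus held the same counts as the first in all libraries, and 1 identifier was used for each. RPPH1 lies with all of its 333 bases within an antisense gene, AL355075.4, on the same strand, so reads from the pair cannot be told apart. RN7SL1 lies within the span of RPS29 on the opposite strand, sharing none of its exon bases.

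Library totals lay between 18723942 and 34277421 counts. The epithelial genes EPCAM, KRT8 and KRT18 were expressed in every library, EPCAM at 257 to 1815 CPM (counts relative to the library total), whereas VIL1, CDX2 and KRT20 were near 0 in some, with minimums of 4, 28 and 20 counts. Of the 7 epithelial markers, 3, 5, 2 and 2 were higher in 3D in HT29, LS513, HCT116 and LS174T, and 1 was lower, in HT29. The marker with the smallest p was CDX2 in HT29, with a log2 fold change of 2.25 ± 0.17 (SE, edgeR adjusted p = 1.8e-09), and KRT20 in the other lines, with 1.54 in LS513 (edgeR adjusted p = 1.1e-07), 1.95 in HCT116 (edgeR adjusted p = 7.4e-06) and 3.93 in LS174T (edgeR adjusted p = 2.5e-11). Of the 7 stromal and blood markers, CD3E was at 0 counts in all libraries, DCN, PTPRC and COL3A1 reached at most 2, COL1A1 reached 655, and none of the 3 tested passed in any line.

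The name of small, abundant RNAs does not describe these libraries. The median level over the 24 libraries was 0.389 CPM for RPPH1, 1.12 for RMRP, 1.27 for RN7SK, 1.42 for RN7SL1 and 1.56 for RN7SL2, on the scale of trimmed mean of M values (TMM). Among the 19387 genes kept for testing, these medians lay between the 22.6 percentile (RPPH1) and the 34.5 percentile (RN7SL2). All 5 RNAs passed the filter on low counts. Messenger RNA was selected with oligo(dT) and these RNAs have no poly(A) tail, so these levels do not measure their amount in the cells. Nor can a bulk library tell less of an RNA in each cell from fewer cells that hold it.

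2 libraries stood apart in these RNAs, library 3 of HT29 grown in 2D and library 2 of LS174T grown in 3D. The 5 RNAs took 0.108% of the counts of the HT29 2D library 3, with a 95% Wilson interval of 0.107% to 0.110%. In the LS174T 3D library 2 they took 0.00921% (0.00887% to 0.00956%). In the other 22 libraries the share lay between 0.000285% and 0.00168%. The intervals cover counting error only, since reads without molecular identifiers are not independent molecules.

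The HT29 2D library 3 was also the library with the lowest total, against a median of 30832786 counts in the other 23. It held 20229 counts of these RNAs, and each of them was between 132 and 296 times its mean in the other 2 libraries of the group. Other RNAs that end without a poly(A) tail were high in it too. Summed small nuclear RNAs were at 13.0 times, Y, vault and telomerase RNAs at 15.6 times and replication-dependent histone genes at 16.9 times the other 2 libraries, histone genes reaching 498 CPM against 29.5. Small Cajal body RNAs were at 6.51 times, box H/ACA snoRNAs at 3.25 times and box C/D snoRNAs at 1.44 times. Box C/D snoRNAs were also at 1.44 times in the HT29 3D library 3. The protein partners of the 5 RNAs lay between 0.963 and 1.00 times and mitochondrially encoded genes at 0.876 times. The part of RNA selection or of RNA quality in this library was not tested.

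The LS174T 3D library 2 held 2707 counts of the 5 RNAs, and they were unevenly high. RN7SK was at 60.7 times its mean in the other 2 libraries, RPPH1 at 9.66 times and RMRP at 7.18 times, while RN7SL2 was at 2.96 and RN7SL1 at 1.61 times. Small Cajal body RNAs stood at 2.41 times, small nuclear RNAs at 2.30 and Y, vault and telomerase RNAs at 2.06. Box H/ACA snoRNAs were at 1.90, histone genes at 1.63 and box C/D snoRNAs at 1.58 times. Not all of these values were particular to this library. Box H/ACA snoRNAs were at 2.05 times in the HT29 3D library 3 and at 1.87 in the HCT116 3D library 1. Y, vault and telomerase RNAs were at 2.03 times in the LS513 3D library 3. Its partner lists lay between 1.00 and 1.31 times the other 2 libraries. The fold changes, variation and correlations of the 5 RNAs below are given with and without these 2 libraries.

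**Figure D1:**
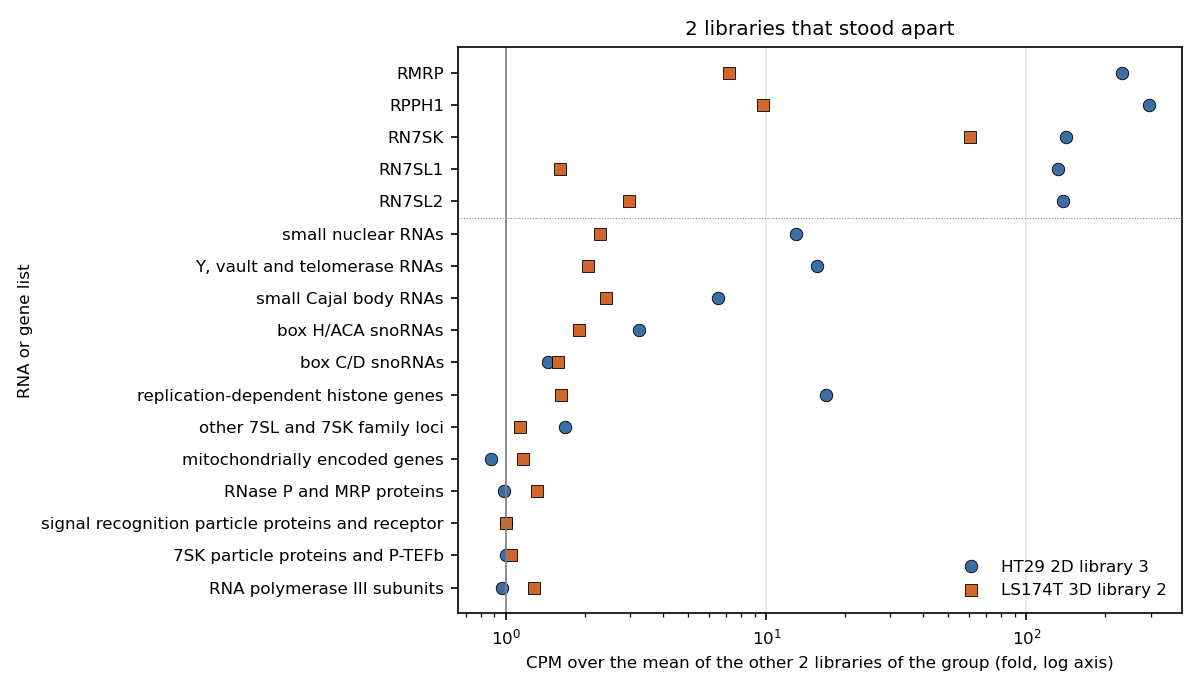
CPM (TMM scale) in the HT29 2D library 3 (circles) and the LS174T 3D library 2 (squares), as a fold over the mean of the other 2 libraries of the same group, for each of the 5 RNAs and for the summed genes of 12 lists (log axis). The 5 RNAs lie between 132 and 296 in the HT29 library, and RN7SK at 60.7 in the LS174T library. Protein partner lists lie between 0.963 and 1.00 in the HT29 library and between 1.00 and 1.31 in the LS174T library.

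In most groups the members varied more between libraries than between technical replicates of 1 library. Over the technical replicates of a library, the chi-square per degree of freedom of a member's counts had a median of 0.955, with a range of 0.123 to 3.36. Between the 3 libraries of a group it reached 10140 for RMRP in HT29 2D and 1698 for RN7SK in LS174T 3D. Outside these 2 groups it reached 32.7. Of the 40 values, 1 for each RNA and group, 33 were larger than the median over technical replicates of the same group and 7 were smaller. The smaller ones were all 5 RNAs in LS174T 2D, down to 0.102 for RN7SK, and RPPH1 and RN7SL1 in LS513 2D. The biological coefficient of variation in the fit was 0.765 for RN7SL1, 0.790 for RN7SL2, 0.923 for RMRP, 0.964 for RPPH1 and 0.979 for RN7SK. The median over all genes was 0.131, and each of the 5 lay above the 99.8 percentile. Without the 2 libraries the coefficients were 0.244, 0.281, 0.445, 0.40 and 0.352 in the same order, between the 89.2 and the 98.6 percentile, with a median over all genes of 0.114. These percentiles are among tested genes of every level, and genes with levels as low as those of the 5 RNAs were not compared separately.

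Levels were compared between the 5 genes per kilobase of gene. The medians over 24 libraries were 5.21 CPM per kilobase for RN7SL2, 4.75 for RN7SL1, 4.23 for RMRP, 3.82 for RN7SK and 1.17 for RPPH1, and without the 2 libraries 5.14, 4.37, 3.79, 3.71 and 1.05. RPPH1 was the lowest, below RMRP in 24 of 24 libraries and below RN7SK, RN7SL1 and RN7SL2 in 23 of 24 each. By full gene length, the other 4 did not differ beyond the spread between libraries. The share of unique 75-base windows was 100% for RMRP but 36.6%, 22.7% and 15.9% for RN7SK, RN7SL1 and RN7SL2. Levels per unique window were not computed, so the order of these 4 may depend on the divisor. RN7SL2 lay above RN7SL1 in 15 of 24 libraries, RN7SL1 above RMRP in 14, and RMRP above RN7SK in 10.

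**Figure D2:**
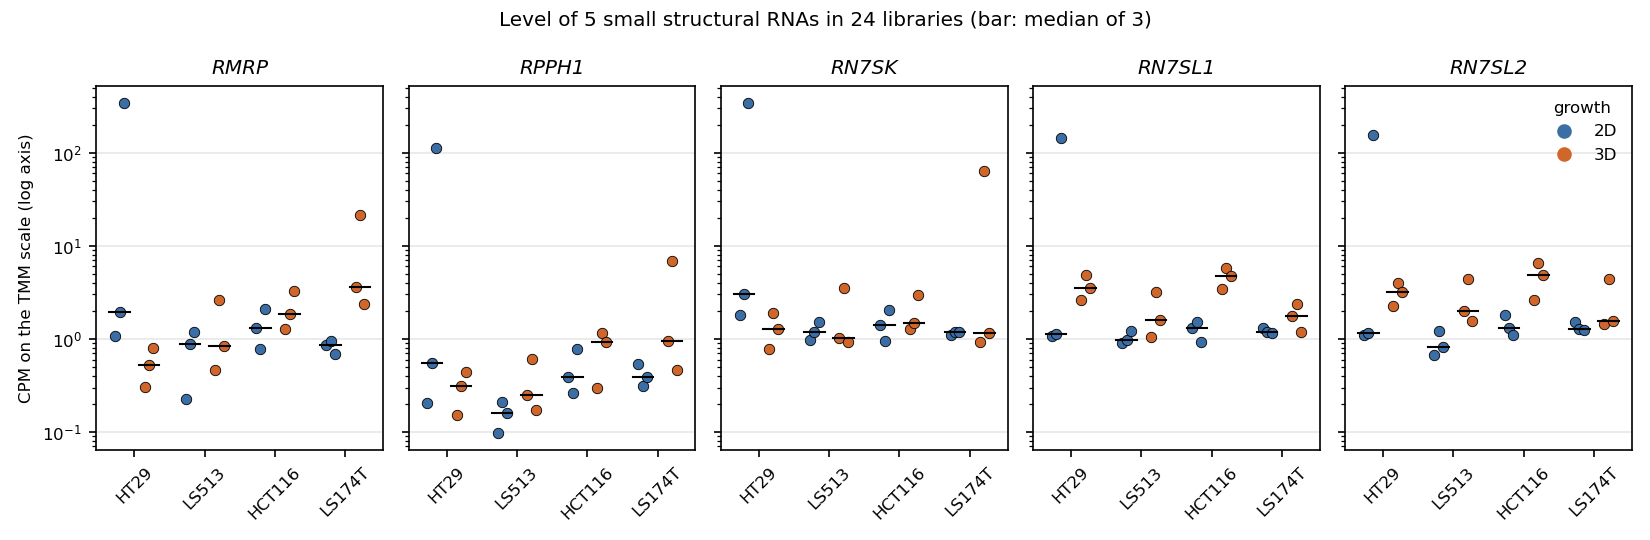
Level of each RNA in CPM on the TMM scale (log axis) in 24 libraries, by cell line, with 2D in blue and 3D in orange. Each point is 1 library and each bar the median of 3; all 5 RNAs have their highest point in 1 HT29 2D library, and RN7SK has another high point in LS174T 3D at 63.3 CPM.

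RMRP, the RNase MRP RNA, had 31, 56 and 6345 counts in the HT29 2D libraries against 10, 15 and 22 in 3D. All 3D libraries were below all 2D libraries in this line, also when library 3 of 2D is set aside. The mean was 117 ± 200 CPM in 2D and 0.539 ± 0.249 in 3D (SD, n = 3 each), and the log2 fold change of 3D over 2D was -7.77 ± 1.85 (SE). Without the 2 libraries it was -1.46 ± 0.67, so its size rested on 1 library and its sign did not.

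In LS513, RMRP had 7, 29 and 37 counts in 2D and 13, 73 and 24 in 3D, and in HCT116 it had 43, 27 and 65 in 2D and 38, 56 and 99 in 3D. The 2 growth conditions overlapped in both lines. The log2 fold changes were 0.76 ± 2.02 and 0.63 ± 1.71 (SE), and 0.76 ± 0.58 and 0.61 ± 0.52 without the 2 libraries. In LS513 the value was -0.24 without the 3D library 2. LS174T went the other way from HT29, with 29, 33 and 23 counts in 2D and 119, 595 and 78 in 3D. The means were 0.829 ± 0.133 and 9.24 ± 10.8 CPM (SD, n = 3 each) and the log2 fold change was 3.45 ± 1.66 (SE). It was 1.87 ± 0.57 without the 2 libraries, and every 3D library of LS174T was above every 2D library with or without library 2.

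RPPH1, the RNase P RNA, was the lowest of the 5 RNAs and often close to the floor of 3 counts. It had 6, 16 and 2044 counts in HT29 2D against 5, 9 and 12 in 3D, so that the groups overlapped. The log2 fold change was -6.97 ± 1.78 (SE) with all libraries and -0.33 ± 0.66 without the 2 libraries, within 1 standard error of 0. In LS513 the counts were 3, 7 and 5 in 2D and 7, 17 and 5 in 3D. Both groups overlapped here, with a log2 fold change of 1.10 ± 2.83 (SE), and 1.10 ± 0.67 without the 2 libraries.

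HCT116 had 13, 9 and 24 counts of RPPH1 in 2D and 9, 35 and 28 in 3D, with a log2 fold change of 0.76 ± 1.95 (SE), and 0.74 ± 0.49 without the 2 libraries. LS174T had 18, 11 and 13 in 2D and 31, 187 and 15 in 3D, with a log2 fold change of 2.69 ± 1.73. It fell to 0.78 ± 0.55 without the 2 libraries. The 2D and 3D libraries overlapped in these lines as well.

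RMRP and RPPH1 belong to sister enzymes that share most of their proteins. Over the 24 libraries their counts moved in parallel, but this was not particular to the pair. Less the group means, the Spearman correlation was 0.883 for RMRP with RPPH1 and 0.929 for RMRP with RN7SK. Without the 2 libraries that stood apart, correlations between pairs of the RNAs described here lay between 0.420 and 0.788 (median 0.522). Separate values for RMRP with RPPH1 and with RN7SK in those 22 libraries are not given. The ratio of RMRP to RPPH1 counts had a median of 3.14 over the 24 libraries and a range of 1.60 to 7.40. It was 3.10 in the HT29 2D library 3 and 3.18 in the LS174T 3D library 2, close to the median in both. By contrast, the ratio of RN7SK to RMRP ran from 0.252 to 4.29. That of RN7SL1 to RMRP ran from 0.109 in the LS174T 3D library 2 to 9.40 in the HT29 3D library 3.

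RN7SK, the scaffold of the 7SK particle, had 53, 89 and 6334 counts in HT29 2D and 26, 55 and 35 in 3D. The groups overlapped, since 1 of the 3D libraries was above the lowest 2D library in counts. The log2 fold change was -6.48 ± 1.86 (SE), and -0.87 ± 0.48 without the 2 libraries. LS513 had 30, 39 and 48 counts in 2D and 29, 100 and 27 in 3D, and HCT116 47, 33 and 63 in 2D and 38, 45 and 89 in 3D. Neither line separated the growth conditions, with log2 fold changes of 0.58 ± 2.00 and 0.39 ± 1.92 (SE), and 0.58 ± 0.44 and 0.37 ± 0.43 without the 2 libraries. The sign turned without the LS513 3D library 2 (-0.32) and without the HCT116 3D library 3 (-0.11).

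In LS174T the RN7SK counts of the 2D libraries were 37, 42 and 40, the tightest group of all, with 1.16 ± 0.048 CPM (SD, n = 3). The 3D libraries had 30, 1738 and 38 counts, so that 1 library was high and the other 2 lay at the level of 2D. The log2 fold change of 4.21 ± 1.77 (SE) became -0.15 ± 0.52 without the 2 libraries. The high mean of RN7SK in LS174T 3D came from library 2.

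RN7SL1 and RN7SL2, the RNAs of the signal recognition particle, were the members whose direction in HT29 turned with 1 library. RN7SL1 had 31, 33 and 2657 counts in 2D and 86, 141 and 98 in 3D, and RN7SL2 had 32, 34 and 2849 in 2D and 75, 116 and 88 in 3D. In both, every 3D library lay above libraries 1 and 2 of 2D and below library 3. The log2 fold changes were -3.73 ± 1.18 for RN7SL1 and -4.05 ± 1.24 for RN7SL2 (SE). Without the 2 libraries they were 1.76 ± 0.37 and 1.50 ± 0.42.

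LS513 had 28, 32 and 38 counts of RN7SL1 in 2D and 30, 90 and 46 in 3D, with a log2 fold change of 0.92 ± 1.41 (SE), and 0.92 ± 0.33 without the 2 libraries. Its RN7SL2 counts were 21, 40 and 26 in 2D and 57, 124 and 45 in 3D. Here the 3D libraries were all above the 2D libraries, with means of 2.66 ± 1.53 and 0.902 ± 0.275 CPM (SD, n = 3 each) and a log2 fold change of 1.55 ± 1.45 (SE), and 1.54 ± 0.37 without the 2 libraries.

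In HCT116 both copies were higher in 3D without overlap. RN7SL1 had 43, 53 and 29 counts in 2D and 104, 177 and 142 in 3D, which gave 1.25 ± 0.300 and 4.66 ± 1.16 CPM (SD, n = 3 each). RN7SL2 had 60, 46 and 34 in 2D and 78, 200 and 146 in 3D, or 1.41 ± 0.368 and 4.67 ± 1.98 CPM. The log2 fold changes were 1.89 ± 1.28 and 1.72 ± 1.31 (SE). Neither of the libraries that stood apart is from HCT116, and without them the fold changes were 1.87 ± 0.31 and 1.70 ± 0.34, with smaller errors because the fit shares its estimate of the spread.

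In LS174T, RN7SL1 had 44, 42 and 39 counts in 2D and 57, 65 and 39 in 3D, and RN7SL2 had 51, 45 and 42 in 2D and 47, 122 and 51 in 3D. The growth conditions overlapped for both. The log2 fold changes of 0.52 ± 1.37 and 0.86 ± 1.37 (SE) became 0.28 ± 0.37 and 0.16 ± 0.41 without the 2 libraries.

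Since the RNAs were chosen with these fold changes known, they are given without a test. By libraries that did not overlap, 1 member was lower in 3D in HT29 (25.6% of all genes), and 1 was higher in LS513 (23% of genes), 2 in HCT116 (22.8%) and 1 in LS174T (20.9%).

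**Figure D3:**
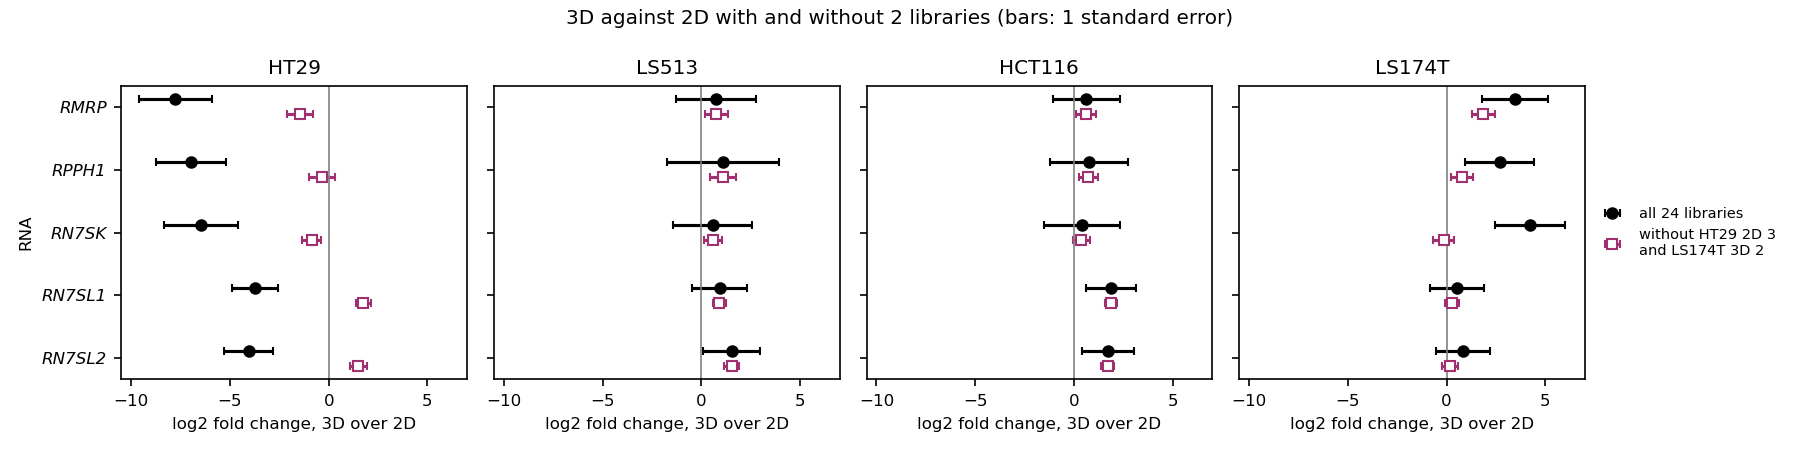
Log2 fold change of 3D over 2D for each RNA in each line, from the fit of all 24 libraries (filled circles) and without the HT29 2D library 3 and the LS174T 3D library 2 (open squares); bars are 1 standard error. RN7SL1 and RN7SL2 in HT29 lie at -3.73 and -4.05 with all libraries and at 1.76 and 1.50 without the 2.

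The 7SL copies kept close to each other, while their share of the counts of the 5 RNAs varied between libraries. The ratio of RN7SL2 to RN7SL1 counts had a median of 1.05 and stayed between 0.684 and 1.90 over all libraries, while their summed counts ran from 49 to 5506. Together they made up 27.2% to 41.2% of the counts of the 5 RNAs in the HT29 2D libraries and 72.9% to 79.7% in 3D, without overlap. This share does not depend on the library total, and the HT29 2D library 3, at 27.2%, lay beside library 2 of its group at 29.4%. In LS174T the order was the reverse, with 53.1%, 50.3% and 51.6% in 2D and 36.6%, 6.91% and 40.7% in 3D. HCT116 lay between 29.3% and 58.9% in 2D and between 57.1% and 73.5% in 3D, and LS513 between 41.6% and 55.1% in 2D and between 53.0% and 64.0% in 3D, with overlap in both.

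**Figure D4:**
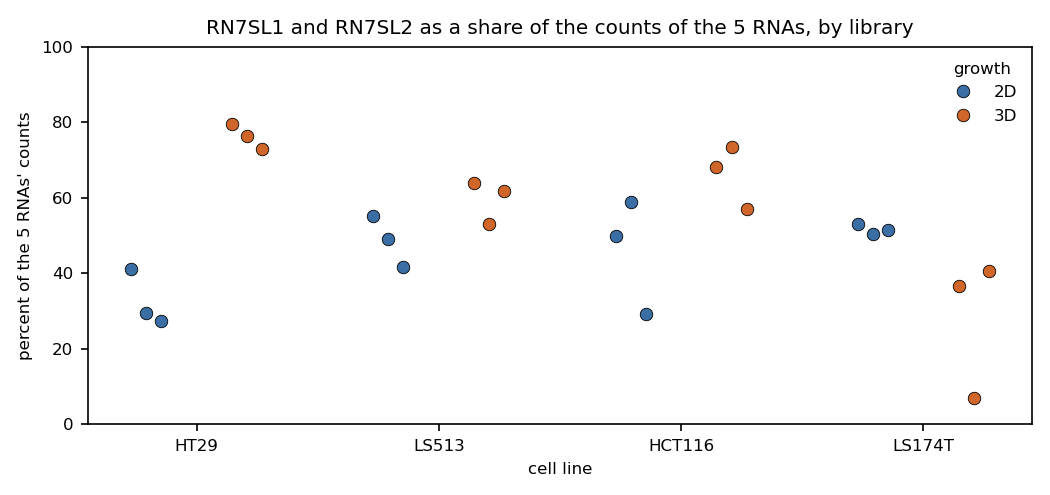
RN7SL1 and RN7SL2 counts as a percent of the counts of all 5 RNAs, by library, for 4 cell lines grown in 2D (blue) and in 3D (orange). In HT29 the 3D libraries, from 72.9% to 79.7%, lie above the 2D libraries, from 27.2% to 41.2%, and in LS174T they lie below them.

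Most copies of these RNA families elsewhere in the genome had no counts, after the authors' removal of reads that matched more than once. Of 974 other annotated loci of the 7SL, 7SK, RNase MRP and RNase P RNA families, 757 had no count in any library, and 11 passed the filter. Summed over all 974, they stayed between 4.16 and 11.2 CPM in all libraries. The highest was RN7SL737P, a 7SL copy named after its values were seen, with a median of 22 counts. The HT29 2D library 3 was at 1.67 times the other 2 libraries of its group in this sum, far less than the members themselves. RN7SL3, a further 7SL copy, had 49 counts in the HT29 2D library 3 and at most 13 in any other.

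Over the 24 libraries, after subtraction of group means, the Spearman correlation between pairs of the 5 RNAs lay between 0.688 and 0.929, with a median of 0.818. Without the HT29 libraries, over 18, it lay between 0.488 and 0.926 with a median of 0.725, and without the 2 libraries that stood apart, over 22, between 0.420 and 0.788 with a median of 0.522. Among 14615 genes with a mean of at least 1 CPM, the genes most like each RNA were then listed. DPH5, METRN and EEF1B2P6 (0.845, 0.840 and 0.834) were nearest to RMRP, and SNORD3A, the U3 snoRNA, with ZNF688 and NDUFS7 (0.856, 0.855 and 0.840) to RPPH1. TXN2, GAS6 and EEF1B2P6 (0.850, 0.833 and 0.829) were nearest to RN7SK. RN7SL1 had TRIM3, MAP2 and SNORD3A (0.767, 0.706 and 0.698), and RN7SL2 had the unnamed ENSG00000282988, the histone gene H2BC11 and IBA57 (0.808, 0.806 and 0.794). Without the 2 libraries the correlations of SNORD3A were 0.394 with RPPH1 and 0.391 with RN7SL1, those of ENSG00000282988 and H2BC11 with RN7SL2 were 0.505 and 0.557, and the others lay between 0.618 and 0.811. These points share their libraries, and with them RNA preparation and depth.

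The promoters of RMRP and RPPH1 lie outside the gene, as those of RN7SK do, and they face a protein-coding gene on the other strand. RefSeq windows of 300 bases on GRCh38.p14 around the start of these neighbours hold the region before both RNAs, which is read from the strand opposite to the one shown. They are printed to show how closely the elements of both genes are placed. Capitals mark the octamer ATGCAAAT and the motif TATAA on either strand, overlapping matches joined.

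RMRP start, CCDC107 window: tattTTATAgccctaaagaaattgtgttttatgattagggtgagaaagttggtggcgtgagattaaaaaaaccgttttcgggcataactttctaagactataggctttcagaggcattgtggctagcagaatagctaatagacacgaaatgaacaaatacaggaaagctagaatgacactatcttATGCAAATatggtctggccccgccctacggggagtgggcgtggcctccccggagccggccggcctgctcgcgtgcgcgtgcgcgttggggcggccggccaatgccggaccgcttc

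RPPH1 start, PARP2 window: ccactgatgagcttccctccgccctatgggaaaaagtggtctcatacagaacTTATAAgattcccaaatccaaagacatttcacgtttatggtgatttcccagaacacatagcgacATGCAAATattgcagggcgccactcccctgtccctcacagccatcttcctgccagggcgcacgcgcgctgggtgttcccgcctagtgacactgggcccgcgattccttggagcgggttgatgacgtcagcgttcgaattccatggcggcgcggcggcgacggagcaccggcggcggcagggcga

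The first window is chr9:35658042-35658341 and the second chr14:20343385-20343684, both printed on the plus strand. The first does not reach the start of RMRP itself, at base 35658017, whereas the second includes that of RPPH1, at base 20343407. The octamer, which POU2F1 is known to bind, lay 210 to 217 bases before the start of RMRP and 94 to 101 bases before that of RPPH1. TATAA lay 29 to 33 bases before RMRP and, in overlapping matches on both strands, 30 to 35 bases before RPPH1. Of all 35116 windows of this length, 1.77% held the octamer, 20.4% TATAA and 0.575% both. A match of letters is a description and not a measured site.

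The protein-coding neighbours showed which genes around these loci moved with growth conditions. CCDC107, whose start is 273 bases from that of RMRP, was higher in 3D in all 4 lines. It went from 5.94 ± 0.457 to 9.53 ± 0.389 CPM in HT29 (SD, n = 3 each), a log2 fold change of 0.68 ± 0.16 (SE, edgeR adjusted p = 0.002). The log2 fold changes were 0.66 in LS513 (edgeR adjusted p = 0.0038), 0.64 in HCT116 (edgeR adjusted p = 0.0037) and 0.83 in LS174T (edgeR adjusted p = 0.00059). In the HT29 2D library 3, CCDC107 was at 0.940 times the other 2 libraries, where RMRP was at 233 times.

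PARP2, a DNA repair enzyme whose start is 175 bases from that of RPPH1, was lower in 3D in 3 lines. It fell from 31.1 ± 1.70 to 21.3 ± 1.30 CPM in HT29 (SD, n = 3 each), with a log2 fold change of -0.55 ± 0.10 (SE, edgeR adjusted p = 0.00012). The log2 fold change was -0.31 in LS513 (edgeR adjusted p = 0.018), -0.54 in HCT116 (edgeR adjusted p = 0.00018) and -0.13 in LS174T (edgeR adjusted p = 0.34), where it did not pass. PARP2 was at 0.943 times the other 2 libraries in the HT29 2D library 3, where RPPH1 was at 296 times.

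GSTA4, a glutathione transferase whose start is 242 bases from that of RN7SK, was higher in 3D in LS513, from 9.36 ± 0.780 to 28.5 ± 1.45 CPM (SD, n = 3 each; log2 fold change 1.60 ± 0.19, edgeR adjusted p = 1.7e-06). It did not pass in HT29, HCT116 or LS174T, where the log2 fold changes were 0.23, 0.71 and 0.53, and its growth effect differed between lines (interaction, edgeR adjusted p = 0.0043). GSTA4 was at 1.04 times the other 2 libraries in the HT29 2D library 3, against 142 times for RN7SK.

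RPS29, the ribosomal protein gene around RN7SL1, was higher in 3D in HT29 (log2 fold change 0.98, edgeR adjusted p = 0.002), HCT116 (0.70, edgeR adjusted p = 0.027) and LS174T (1.01, edgeR adjusted p = 0.0039). In LS174T 3D it had a mean of 401 ± 214 CPM (SD, n = 3), with library 2 at 2.33 times the others. LRR1 was lower in HT29, LS513 and HCT116 (log2 fold changes -0.50, -0.29 and -0.71), and NEMF, a ribosome quality control factor next to RN7SL2, in HT29 and HCT116 (-0.48 and -0.46). ARF6 was lower in HT29 (-0.24) and CCNB1IP1 was higher in HT29, HCT116 and LS174T (0.53, 0.40 and 0.80). ICK did not pass in any line, and SIT1 and MDGA2 were below the filter. In all, 7 of the 9 tested neighbours passed in HT29, against 40.7% of all tested genes. In LS513, HCT116 and LS174T, 4, 6 and 3 of the 9 did, against 23.6%, 29.1% and 22.2%. Leaving out 1 library ended some of these calls, for LRR1 in LS513 and ARF6 in HT29 with any of 5 libraries, for PARP2 in LS513, CCNB1IP1 in HCT116 and RPS29 in HCT116 with any of 4, and for NEMF in HCT116 with 1, the 2D library 2.

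The proteins that work with these RNAs, and the machinery that transcribes them, are messenger RNAs with poly(A) tails and were measured at higher counts. Of 64 such genes, all of them tested, 7 were higher and 19 lower in 3D in HT29, against 21.1% and 19.6% of all tested genes. In LS513, 3 were higher and 11 lower (13.7% and 9.90% of all genes), in HCT116 8 and 15 (16.8% and 12.3%), and in LS174T 4 and 9 (13.1% and 9.15%). The median log2 fold changes of the 64 genes were -0.12, -0.078, -0.13 and -0.0074, where all genes had 0.00017, 0, 0.011 and 0.016.

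These counts depend on the libraries and on the scaling. Without the 2 libraries they were 10 higher and 17 lower in HT29, 4 and 14 in LS513, 9 and 23 in HCT116, and 0 and 3 in LS174T. Of all tested genes, 38.7%, 28.5%, 34.6% and 10.5% then passed in these lines, in either direction. In LS513, the 11 lower genes became 1 without the LS513 3D library 2. Scaling by library totals moved the median of all genes by -0.13, -0.10 and -0.12 in LS513, HCT116 and LS174T, and the split of higher to lower became 1 to 24, 5 to 29 and 1 to 14.

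**Figure D5:**
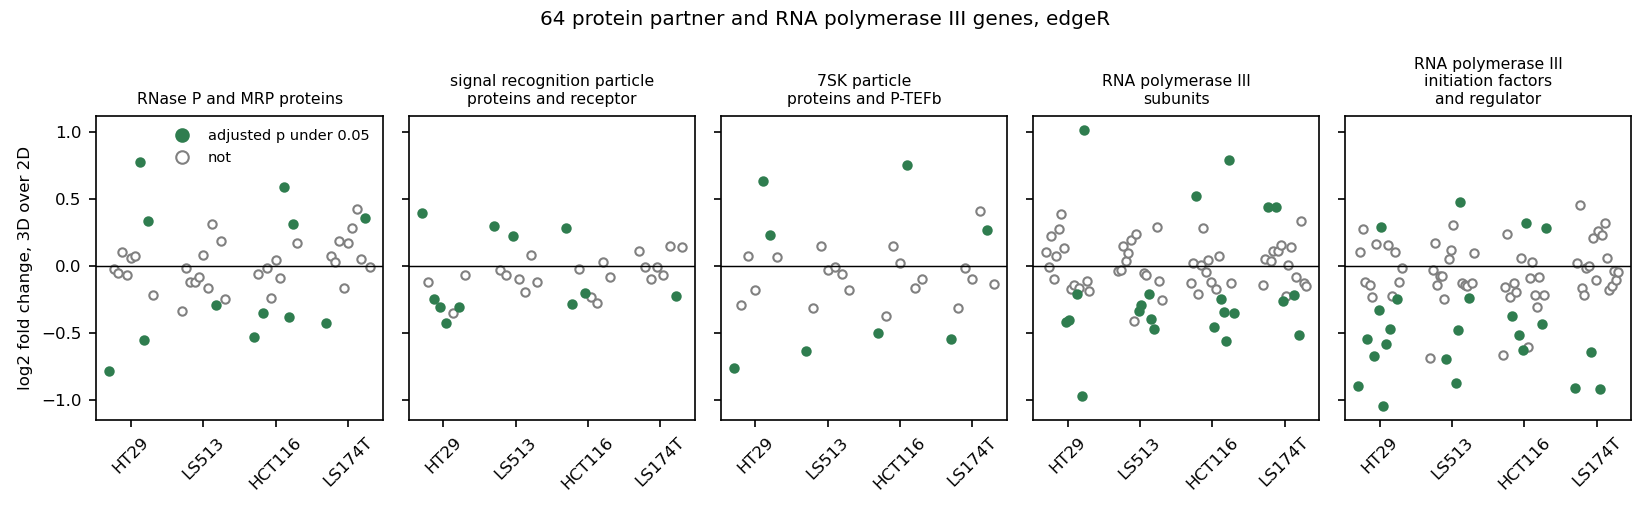
Log2 fold change of 3D over 2D for 64 genes in 5 lists, by cell line; filled points have an edgeR adjusted p under 0.05 and open points do not. Lower genes outnumber higher ones among the filled points, 19 to 7 in HT29 and 9 to 4 in LS174T.

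Of 11 protein genes of RNase P and RNase MRP, 2 were higher and 2 lower in HT29, 0 and 1 in LS513, 2 and 3 in HCT116, and 1 and 1 in LS174T. POP1, the largest protein of both enzymes, fell from 79.7 ± 5.31 to 46.4 ± 3.86 CPM in HT29 (SD, n = 3 each; log2 fold change -0.78 ± 0.13, edgeR adjusted p = 4.4e-05). It was also lower in HCT116 (-0.53, edgeR adjusted p = 0.0027) and LS174T (-0.43, edgeR adjusted p = 0.02). RPP30 was lower in HT29 (-0.56), LS513 (-0.29) and HCT116 (-0.38), had a log2 fold change of 0.055 in LS174T, and differed between lines (interaction, edgeR adjusted p = 0.017). The call in LS513 did not hold when any of 4 libraries of that line was left out, nor that of POP1 in LS174T with any of 3.

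Of 8 genes of the signal recognition particle and its receptor, 1 was higher and 4 lower in HT29, 2 and 0 in LS513, 1 and 2 in HCT116, and 0 and 1 in LS174T. SRP14, which binds the Alu end of the 7SL RNA with SRP9, was higher in 3D in 3 lines. In HT29 its level went from 195 ± 6.81 to 256 ± 9.23 CPM (SD, n = 3 each; log2 fold change 0.40 ± 0.074, edgeR adjusted p = 0.00021), and the log2 fold change was 0.30 in LS513 (edgeR adjusted p = 0.0046) and 0.29 in HCT116 (edgeR adjusted p = 0.0054). SRPRA, a subunit of the receptor, was lower in LS174T (-0.22 ± 0.076, edgeR adjusted p = 0.041, a call that ended without any of 5 libraries) and in HT29 (-0.30, a call that ended without either of 2 libraries), and its growth effect differed between lines (interaction, edgeR adjusted p = 0.024).

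Of 7 genes of the 7SK particle and P-TEFb, 2 were higher and 1 lower in HT29, 0 and 1 in LS513, 1 and 1 in HCT116, and 1 and 1 in LS174T. CCNT1, the cyclin T1 of P-TEFb, was lower in 3D in all 4 lines. It went from 61.4 ± 4.05 to 36.1 ± 3.69 CPM in HT29 (SD, n = 3 each; log2 fold change -0.77 ± 0.15, edgeR adjusted p = 0.00033), and the log2 fold change was -0.64 in LS513, -0.50 in HCT116 and -0.55 in LS174T. HEXIM2, an inhibitor of P-TEFb that needs 7SK, was higher in HCT116, from 10.5 ± 1.46 to 17.8 ± 1.14 CPM (log2 fold change 0.76 ± 0.15, edgeR adjusted p = 0.00075), and in HT29 (0.63, edgeR adjusted p = 0.0062).

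Of 18 subunits of RNA polymerase III, 1 was higher and 4 lower in HT29, 0 and 5 in LS513, 2 and 5 in HCT116, and 2 and 3 in LS174T. POLR3G and POLR3GL, alternative forms of 1 subunit, moved in opposite directions. POLR3G was lower in 3D in all 4 lines, from 12.7 ± 1.88 to 6.50 ± 1.14 CPM in HT29 (SD, n = 3 each; log2 fold change -0.97 ± 0.16, edgeR adjusted p = 5.4e-05), with -0.47 in LS513, -0.56 in HCT116 and -0.51 in LS174T. POLR3GL was higher in HT29, from 5.26 ± 0.694 to 10.7 ± 0.782 CPM (1.02 ± 0.14, edgeR adjusted p = 9.9e-06), and in HCT116 (0.79, edgeR adjusted p = 0.00013). It did not pass in LS513 (0.29) or LS174T (0.33), and its growth effect differed between lines (interaction, edgeR adjusted p = 0.019). POLR3E was lower in all 4 lines by small amounts, with log2 fold changes of -0.21, -0.21, -0.25 and -0.22, and its call was lost with any of the 6 libraries of the line in HT29, LS513 and LS174T and with either of 2 in HCT116. POLR3A was lower in HT29 (-0.42, edgeR adjusted p = 0.00075), in LS513 (-0.34, edgeR adjusted p = 0.0078) and in LS174T (-0.26, edgeR adjusted p = 0.041). Its call in LS513 ended without the LS513 3D library 2 (-0.29, edgeR adjusted p = 0.065), and that in LS174T without any of 5 libraries. POLR1D, shared with RNA polymerase I, was higher in HCT116 (0.52, edgeR adjusted p = 0.00072) and in LS174T (0.44, edgeR adjusted p = 0.0053). Its call in LS174T ended without the 2 libraries that stood apart (0.28, edgeR adjusted p = 0.05001).

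Of 20 initiation factors and a regulator of RNA polymerase III, 1 was higher and 8 lower in HT29, 1 and 4 in LS513, 2 and 4 in HCT116, and 0 and 3 in LS174T. GTF3C4, a TFIIIC subunit, was lower in all 4 lines, with log2 fold changes of -0.67, -0.69, -0.52 and -0.64. GTF3C1, the largest TFIIIC subunit, was lower in HT29, from 153 ± 7.24 to 105 ± 5.23 CPM (SD, n = 3 each; log2 fold change -0.54 ± 0.10, edgeR adjusted p = 0.00017), and in HCT116 (-0.37, edgeR adjusted p = 0.0069). POU2F1, the octamer-binding factor, was lower in HT29 (-1.05, edgeR adjusted p = 0.002), in LS513 (-0.88, edgeR adjusted p = 0.011) and in LS174T (-0.92 ± 0.25, edgeR adjusted p = 0.011), and its log2 fold change was -0.60 in HCT116, where it did not pass. The call in LS513 ended without the LS513 3D library 2 (-0.79, edgeR adjusted p = 0.068) and that in LS174T without the LS174T 3D library 2 (-0.59, edgeR adjusted p = 0.054). SNAPC1, of the complex that binds the promoters of RMRP, RPPH1 and RN7SK, was lower in HT29 (-0.58, edgeR adjusted p = 0.0011) and in LS513 (-0.48, edgeR adjusted p = 0.0081). The SNAPC1 call in LS513 ended without the LS513 3D library 2 (-0.37, edgeR adjusted p = 0.078). GTF3C6 was lower in HCT116 (-0.63 ± 0.10, edgeR adjusted p = 6.2e-05) and in HT29 (-0.33, edgeR adjusted p = 0.011, a call that ended without any of 4 libraries).

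CCNT1, POLR3E, POLR3G and GTF3C4 were the 4 of 64 genes that passed in the same direction in all 4 lines. The share of all tested genes that did so was not counted, so 4 of 64 cannot be called many or few. The calls of GTF3C4 and CCNT1 in HCT116 ended when any of 4 and of 2 libraries was left out, that of POLR3G in LS513 with any of 4, and that of GTF3C4 in LS513 without the 3D library 2. Without the LS174T 3D library 2 none of the 4 passed in LS174T, with log2 fold changes of -0.42 for CCNT1 (edgeR adjusted p = 0.079), -0.21 for POLR3E (edgeR adjusted p = 0.086), -0.37 for POLR3G (edgeR adjusted p = 0.11) and -0.36 for GTF3C4 (edgeR adjusted p = 0.078). The calls of CCNT1 and GTF3C4 ended with this library alone, that of POLR3G also with 1 more and that of POLR3E with any of the 6. The growth effect differed between the lines for 7 of the 64 genes, where 17.1% of all tested genes passed that test.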

How the data were processed

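RNA from 4 CRC cell lines grown in 2D or 3D was measured in 24 libraries. The members and gene lists were chosen with earlier results of these data known. The authors trimmed the reads with Trim Galore 0.4.1, removed reads of 40 bases or less or of a mean quality of 30 or less, aligned them with STAR to the Ensembl 91 genome, dropped reads that matched more than once, and counted overlaps with exons by HTSeq-count 0.5.3. The labels name hg19 as the build, which is not the build of Ensembl 91, so positions here are those of GENCODE 29 on GRCh38 (57980 of 58243 identifiers matched) and not the files' own. Symbols were found for 57532. The deposited values are raw counts per gene and technical replicate, with no normalization. The 8 technical replicates of each library were summed, except for 1 HT29 3D library with 7, the other being not analysed here. Groups and replicate numbers come from the labels, which do not say whether libraries are separate cultures, so p-values measure the spread between these libraries, which may be technical.

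In R 4.3.3, edgeR 4.0.16 kept 19387 genes (filterByExpr), scaled by TMM and fitted a robust quasi-likelihood model with 1 coefficient for each of 8 groups. Two-sided p-values were adjusted by Benjamini-Hochberg over all tested genes, with a threshold of 0.05 and no cutoff on fold change. The standard errors (SE) were derived from the test, as the absolute log2 fold change over the square root of its F statistic. An interaction test compared the effect of growth among the 4 lines. With totals between 18723942 and 34277421, 3 counts, taken as a floor, correspond to 0.0875 to 0.160 CPM. Likeness used log2(CPM + 1) less the group mean. Named genes are the 5 RNAs, in each list given by symbol the gene with the smallest p in each line among those that passed, genes passing in the same direction in all 4 lines, the nearest protein-coding neighbours and the 3 genes most like each RNA. The fit was tested on simulated data. The alternatives tried were scaling by DESeq2 1.42.0 or by library totals, no filter, a replicate block, DESeq2, the 6 libraries of a line, either set of 4 technical replicates, leaving out each library, and, chosen after seeing the data, leaving out the 2 libraries that stood apart. Promoter windows come from RefSeq. The sequences of the 7SL copies are not reported here.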

Additional observations from a re-analysis of the deposited data

Results flagged for a closer look

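The order of the RMRP libraries was opposite in 2 lines. All 3D libraries lay below all 2D libraries in HT29 (log2 fold change -7.77) and above them in LS174T (3.45), and this difference between lines was not tested. Of all tested genes, 25.6% were lower in 3D without overlap in HT29 and 20.9% were higher without overlap in LS174T. RMRP was chosen with these values known. Without the HT29 2D library 3 and the LS174T 3D library 2 the values were -1.46 and 1.87.

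The 5 partner genes RPP30, SRPRA, POLR3GL, SNAPC1 and GTF3C6 had a growth effect that differed between the 4 lines in the interaction test of edgeR. GTF3C6 (adjusted p = 0.0027) had log2 fold changes of -0.33 in HT29 and -0.63 in HCT116 against 0.12 in LS513 and -0.11 in LS174T. SNAPC1 (adjusted p = 0.0048) had -0.58 in HT29, -0.48 in LS513, -0.091 in HCT116 and 0.23 for LS174T. RPP30 (adjusted p = 0.017), POLR3GL (adjusted p = 0.019) and SRPRA (adjusted p = 0.024) were the others, all by edgeR. SRP68 (0.0018) and LARP7 (0.023), which complete the 7, were named after their values were seen. In the line order of SNAPC1, SRP68 had log2 fold changes of -0.31, 0.22, -0.20 and -0.0094, and LARP7 of 0.23, -0.060, -0.16 and 0.27. Among the neighbour genes, GSTA4 (edgeR adjusted p = 0.0043) and LRR1 (edgeR adjusted p = 0.043) differed between lines.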

How the results depend on the processing

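The members' log2 fold changes in HT29 and, except for RN7SL1, in LS174T changed most with 1 library of each line. When each library was left out in turn, the range in HT29 was -8.30 to -1.46 for RMRP, -7.50 to -0.33 for RPPH1, -7.00 to -0.87 for RN7SK, -4.26 to 1.76 for RN7SL1 and -4.58 to 1.50 for RN7SL2, and in LS174T 1.87 to 3.91 for RMRP, 0.79 to 3.20 for RPPH1, -0.15 to 4.79 for RN7SK and 0.17 to 1.14 for RN7SL2. The upper ends in HT29 came without the HT29 2D library 3 and the lower ends in LS174T without the LS174T 3D library 2. RN7SK in LS513 ranged from -0.32 to 0.90 and RMRP in LS513 from -0.24 to 1.21, both turning without the LS513 3D library 2, and RN7SK in HCT116 from -0.11, without the HCT116 3D library 3, to 0.66. Without both libraries that stood apart the HT29 values were -1.46, -0.33, -0.87, 1.76 and 1.50 in the order RMRP, RPPH1, RN7SK, RN7SL1 and RN7SL2, and those of LS174T were 1.87, 0.78, -0.15 and 0.16 for RMRP, RPPH1, RN7SK and RN7SL2. RPPH1 in LS513 was -0.0067 with technical replicates a to d. The median correlation between members was 0.725 without HT29 and 0.522 without the 2 libraries.

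Counts of partner genes, higher or lower in 3D, moved by more than 1.5 times as follows. By library totals, LS513 had 1 higher and 24 lower, HCT116 5 and 29, and LS174T 1 and 14. With no filter, 12 were lower in HT29, 1 higher and 6 lower in LS513 and 4 higher in HCT116, and 3 differed between lines. With only the 6 libraries of a line, 5 were higher in LS513 and 0 higher and 1 lower in LS174T (edgeR). Technical replicates e to h gave 7 lower in LS513, and DESeq2 8 higher in LS174T. Without the 2 libraries, 23 were lower in HCT116 and 0 higher and 3 lower in LS174T. Under library totals and without the 2 libraries, the counts of all tested genes moved as well, as given above. When 1 library was left out, the higher counts ranged from 4 to 8 in HT29, 1 to 4 in LS513, 5 to 7 in HCT116 and 1 to 12 in LS174T, and the lower counts from 1 to 12 in LS513, 8 to 19 in HCT116 and 3 to 7 in LS174T. The LS513 3D library 2 gave the 1 in LS513, the HCT116 2D library 1 the 8 and the LS174T 3D library 3 the 12. Neighbour calls ranged from 2 to 6 in LS513 and 3 to 7 in HCT116, and in LS174T were 5 by library totals and 6 with no filter. Of 65 single calls for named genes, 31 held under every alternative and none reversed. The cause of these changes was not tested.

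The labels do not say whether equal replicate numbers mark libraries handled together. The correlation of same-numbered deviations lay between -0.21 and 0.22 and exceeded 0.1 in 2 of 11 pairs. With so few libraries in a group, these correlations cannot decide it. With a replicate block, 4 partner genes were higher and 12 lower in HT29, 6 were lower in LS513, 5 higher in HCT116, and 2 higher and 5 lower in LS174T, and 2 neighbours passed in LS513. Low counts limit the members, and RPPH1 the most, with 3 to 35 counts in 22 libraries.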
